A study of Mus musculus with 3 samples.

Results

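Collagens are the triple-helical proteins that give connective tissues their strength, and each chain is the product of its own gene. The genes described here are the 43 mouse collagen genes carried on the array, found as all non-control probes whose gene name in the deposited scanner files is Col, a type number, the letter a and a chain number. They are 43 of 35019 genes and are read by 68 of 55681 probes. By collagen type they fall into 5 bone fibrillar genes (types I and V), 3 other fibrillar genes (III, XXIV, XXVII), 7 cartilage genes (II, IX, X, XI), 8 basement membrane genes (IV, XV, XVIII), 6 beaded filament genes (VI), 3 fibril-associated or FACIT genes (XII, XIV, XVI) and 11 others. The FACIT class here is not the whole FACIT family, because other fibril-associated types, such as IX, are filed in other classes.

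RNA came from the posterior frontal suture, the fibrous joint between the frontal bones of the skull, of C57BL/6 mice. The groups were Runx2+/+ (wild type) at postnatal day 5 (P5), Runx2+/+ at P7 and Runx2+/- at P7, with 1 one-colour Agilent array for each. Runx2 encodes a transcription factor without which osteoblasts do not form. The labels give neither the number of mice behind a sample nor which part of Runx2 the mutant allele lacks.

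Fibrillar collagens assemble into the banded fibres of bone, tendon and cartilage. Type I fibres, with type V chains in their core, are the scaffold that osteoblasts mineralise, whereas type II fibres, built with types IX and XI, fill cartilage. Type IV collagen forms the sheet beneath endothelium and epithelium, type VI forms beaded microfilaments, and FACIT collagens coat the surface of fibres. The posterior frontal suture closes after birth in mice, and that closure passes through a cartilage stage.

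Each array carries no replicate, so no test across samples exists and every difference below compares a pair of arrays. Levels are log2 signals minus the array's own 75th percentile over all probes, and a gene is called detected where the scanner software marked its probe as well above background. A difference of at least 2-fold, which is 1 on the log2 scale, is counted. The spread of repeated spots of the same probe gave an SD of 0.18 for the genotype difference, 0.20 for the age difference and 0.17 for Runx2+/- against P5, which covers spotting error within arrays and not variation between mice. In a sample of whole tissue, fewer cells of a type and less RNA per cell cannot be told apart.

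The arrays differed in brightness: the share of probes detected was 40.1% for P5 wild type, 29.2% for P7 wild type and 47.3% for Runx2+/-, and the software asked for the P7 wild-type array to be evaluated. The used Runx2 probe read 2.38, 1.46 and 1.08 in the same order, and whether it lies in the deleted part is not known, so it does not check the genotype label. All 6 osteoblast markers (Sp7, Alpl, Ibsp, Bglap2, Dmp1, Phex) were detected on every array. Xist, made from the inactive X of females, read 2.45, 1.94 and -3.10, while the Y-linked Eif2s3y read -0.35 and 2.37 on the P5 and Runx2+/- arrays and was not detected on the P7 wild-type array. Sex and genotype therefore cannot be told apart in these arrays, nor can sex and age.

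Promoter sequences are shown first. These are of a lower chain whose value depends on the processing, a higher chain and the cartilage chain with the largest age difference. Each sequence is the 250 bases before the RefSeq start (GRCm38.p6), written 5′ to 3′ on the gene's strand. Capitals mark the GC box, the CCAAT box and the RUNX core on either strand, whose letters are spelled out with the counts that follow. Col1a2 lies at chr6:4505368-4505617 on the plus strand, Col9a2 at chr4:121039316-121039565 on the plus strand and Col8a1 at chr16:57754738-57754987 on the minus strand.
Col1a2: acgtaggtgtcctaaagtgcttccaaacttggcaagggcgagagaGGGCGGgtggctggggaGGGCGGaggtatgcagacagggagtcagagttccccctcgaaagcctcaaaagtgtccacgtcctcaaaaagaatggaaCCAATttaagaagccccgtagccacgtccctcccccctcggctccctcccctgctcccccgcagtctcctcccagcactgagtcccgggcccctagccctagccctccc
Col9a2: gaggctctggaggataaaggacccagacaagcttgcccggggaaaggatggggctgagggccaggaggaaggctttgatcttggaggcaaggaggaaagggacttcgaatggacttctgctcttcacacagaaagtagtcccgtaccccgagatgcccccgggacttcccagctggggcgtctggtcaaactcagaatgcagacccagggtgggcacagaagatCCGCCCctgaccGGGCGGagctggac
Col8a1: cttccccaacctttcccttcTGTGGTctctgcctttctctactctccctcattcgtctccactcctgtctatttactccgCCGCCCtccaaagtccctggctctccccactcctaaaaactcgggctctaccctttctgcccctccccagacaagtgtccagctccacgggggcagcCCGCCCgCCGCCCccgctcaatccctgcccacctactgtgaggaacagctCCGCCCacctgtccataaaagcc

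A window of 300 bases, from 250 before the RefSeq start to 50 after it, was matched for 35 of the 43 genes, and not for Col1a1, Col2a1, Col22a1, Col12a1, Col14a1, Col5a2, Col4a3 and Col9a3. Searched on both strands, the GC box GGGCGG was present in 22 of the 35 windows (62.9%), against 38.2% of the windows of all 27025 genes in the table. The CCAAT box was present in 13 (37.1%, against 41.1%) and the TATA box TATAAA in 5 (14.3%, against 15.7%). The RUNX core TGTGGT was present in 3, those of Col18a1, Col8a1 and Col17a1 (8.57%, against 18.9%), and the SOX core ACAATG in that of Col28a1 alone (2.86%, against 14.3%). The median GC content was 60% in the collagen windows and 52.8% over all genes. Such matches describe letters only and do not mark binding sites, and the absence of a match says nothing of the factor.

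The other set of sequences shows what makes a collagen transcript recognisable. Along the triple helix glycine recurs at a fixed spacing, 9 bases apart in the transcript, and its codons begin with GG. That period ran through the whole 60-base probe in 2 of the 68 collagen probes and in 6 of 55602 probe sequences on the array. The capitals below mark the glycine codons. The Col15a1 probe is the one used for that gene (chr4:47283786-47283845, mm9, plus strand), and the Col25a1 probe (chr3:130270497-130270556, mm9, plus strand) was not detected on any array.
Col15a1: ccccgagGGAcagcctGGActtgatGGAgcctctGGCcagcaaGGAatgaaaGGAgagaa
Col25a1: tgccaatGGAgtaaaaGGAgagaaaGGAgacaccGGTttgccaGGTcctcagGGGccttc

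The longest run of bases shared by probes of different collagen genes was 15. Probe coordinates in what follows are those of the files on mm9, and whether a probe lies in coding or untranslated sequence was not analysed here.

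Of the 43 genes, 32 were detected on at least 1 array and 29 on all 3. All 5 bone fibrillar genes, all 3 other fibrillar genes and all 3 genes of the FACIT class were detected. So were 5 of 7 cartilage, 5 of 8 basement membrane, 3 of 6 beaded and 8 of 11 other genes. The 11 genes detected on no array were Col9a3 and Col10a1 in the cartilage class, Col4a3, Col4a4 and Col4a6 in the basement membrane class, Col6a4, Col6a5 and Col6a6 in the beaded class, and Col17a1, Col19a1 and Col28a1. Col10a1 is the collagen of hypertrophic chondrocytes, Col4a3 and Col4a4 belong to the basement membrane of the kidney glomerulus, and Col17a1 belongs to the junctions between epidermis and dermis. Their absence from the detected set is a statement about these probes at this brightness.

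**Figure D1:**
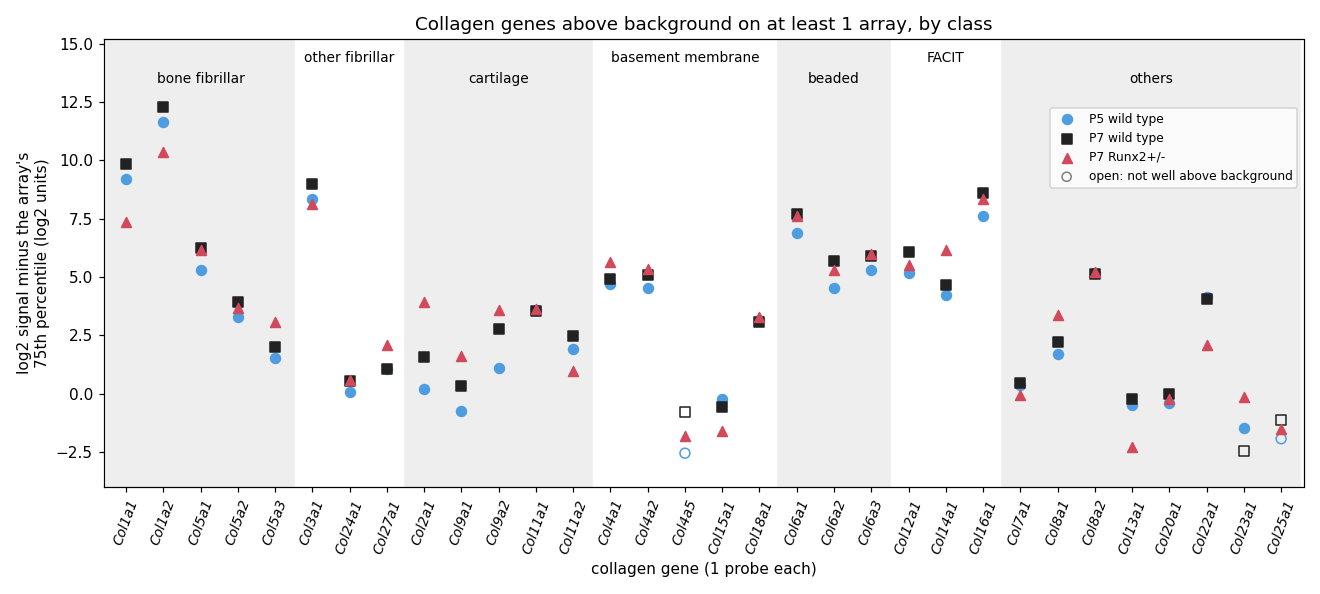
Level of each detected collagen gene at P5 (circles, wild type) and at P7 (squares, wild type; triangles, Runx2+/-), in log2 units relative to the array's 75th percentile, grouped by class; open symbols are not well above background. The Runx2+/- triangle is the lowest of the 3 for Col1a1 and Col1a2 and the highest for Col2a1, Col9a1 and Col9a2; heights of different genes come from different probes and are not comparable.

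The first comparison asked how collagen genes in the P7 suture differed with the loss of 1 Runx2 allele. An order between the arrays could be given for 30 collagen genes, 29 measured on both arrays and Col23a1 as a lower bound. In Runx2+/- 6 of the 30 were at least 2-fold higher, against 5.04% of all genes with an order, and 6 were at least 2-fold lower, against 13.9% of all genes. The median over the 30 was -0.02, with 15 above 0 and 15 below, and the median over all genes was 0.13. The bone fibrillar, cartilage and remaining classes each held 2-fold differences in both directions.

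**Figure D2:**
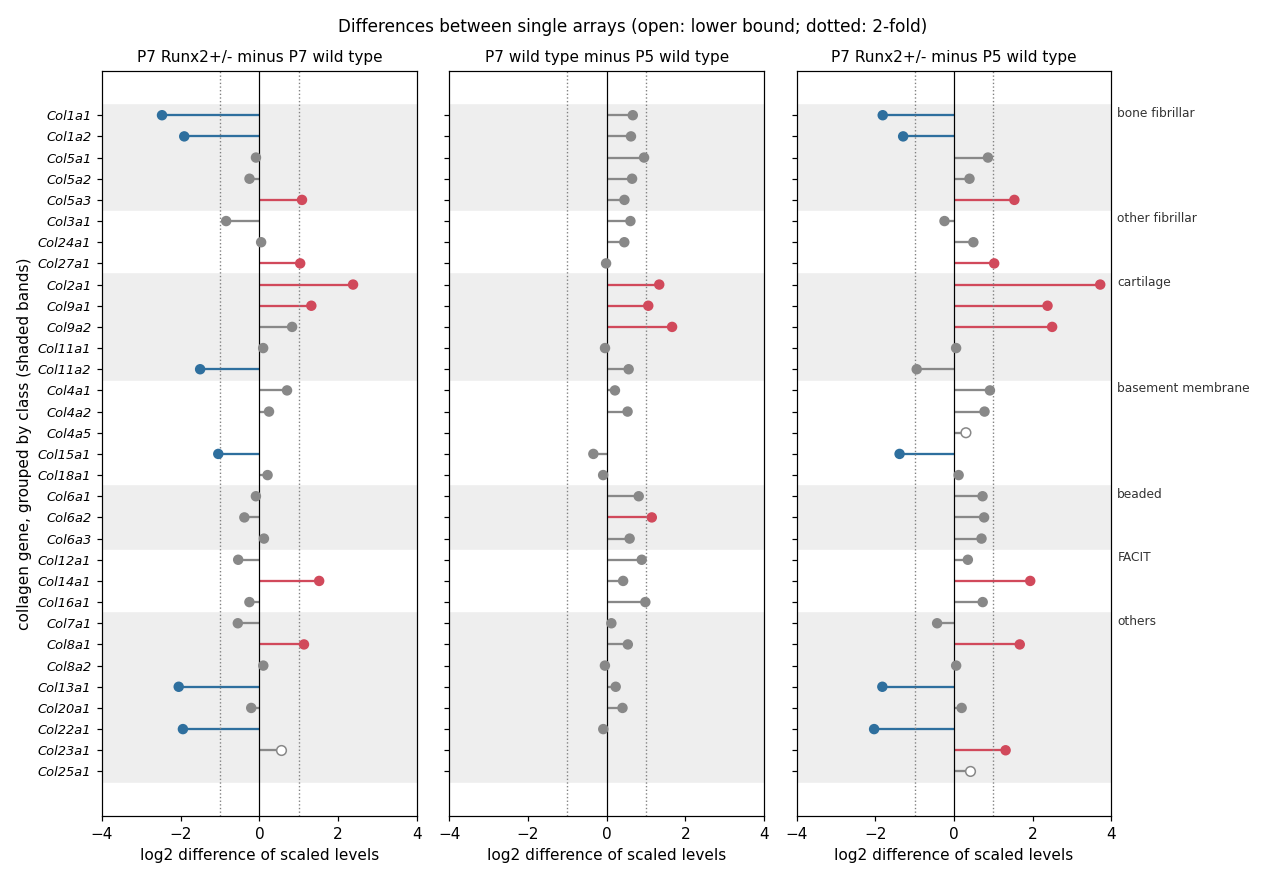
Log2 difference of each detected collagen gene between pairs of arrays: Runx2+/- minus wild type at P7 (left), P7 minus P5 wild type (middle) and P7 Runx2+/- minus P5 wild type (right). Blue and red points are at least 2-fold lower and higher, dotted lines mark 2-fold and open points are lower bounds; in the middle panel no collagen is 2-fold lower, and Col1a1 at -2.48 and Col2a1 at 2.38 are the extremes of the left panel.

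In the bone fibrillar class the genotype median was -0.25 over 5 genes, with the type I genes more than 1 unit below the type V genes. After normexp with the 75th percentile, which moved the median of all genes to 0.62, this class median was 0.90. Col1a1, which encodes the more abundant chain of type I collagen, read 9.18 at P5, 9.84 at P7 in wild type and 7.37 in Runx2+/-. The Runx2+/- level was thus the lowest, 5.56-fold below P7 wild type (log2 difference -2.48, chr11:94813115-94813174). Col1a2, whose product is the partner chain in the type I trimer, read 11.65, 12.27 and 10.36 in the same order, a difference of -1.91 (3.76-fold lower, chr6:4490619-4490678). The difference between these partners was 0.57.

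The Col1a2 value depends on how bright probes are treated. Its signal ranked 4, 1 and 2 among 55681 probes, in the same order of arrays. Quantile normalization, which gives equal ranks equal values, left a difference of -0.12, and the authors' values one of -0.14. Normexp background correction with the 75th percentile gave -0.54 at an all-gene median of 0.62. Col1a1 stayed at least 2-fold lower in the 7 alternatives that gave it another value, between -2.58 and -1.22. Before any scaling the Col1a1 signals of both P7 arrays were nearly equal (log2 difference -0.03), so the difference is one relative to the rest of each array.

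Type V collagen initiates fibrils and limits their width, and its genes differed among themselves. Col5a1 read 5.30, 6.25 and 6.17 (genotype difference -0.09), and Col5a2 read 3.29, 3.94 and 3.68 (-0.25). Col5a3, the chain with the most restricted expression, read 1.54, 1.99 and 3.07, a difference of 1.08 (2.12-fold higher, chr9:20574592-20574651). The P7 Runx2+/- array was the highest of the 3 for Col5a3, whereas the P7 wild-type array was the highest for Col5a1 and Col5a2. Some alternatives, such as another probe or filter, leave the value of a gene with 1 detected probe as it is. Of the 7 that gave Col5a3 another value it fell short of 2-fold in 5 (lowest 0.85).

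The 3 other fibrillar genes had a genotype median of 0.04. Col3a1, the fibrillar collagen of skin, vessels and loose connective tissue, read 8.36, 8.97 and 8.12, a difference of -0.85. It therefore lay on the same side as the type I genes without reaching 2-fold, and it was 0.50 after normexp with the 75th percentile. Col27a1, a fibrillar chain made largely in cartilage, read 1.08, 1.07 and 2.10, a difference of 1.04 (2.05-fold higher, chr4:62995485-62995544) that missed 2-fold in 6 of the 7 alternatives that gave another value. Col24a1, described in developing bone, read 0.08, 0.53 and 0.57 (0.04).

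In the cartilage class 4 of the 5 ordered genes lay above 0 and the median was 0.83. Col2a1, the main fibre of cartilage, read 0.22, 1.56 and 3.94, so the order of the arrays was P5, P7 wild type, Runx2+/-. Its genotype difference was 2.38 (5.21-fold higher, chr15:97806071-97806130) and stayed between 2.02 and 2.73 in the 7 alternatives that gave another value. Col9a1, part of the type IX coat of type II fibres, read -0.74, 0.31 and 1.63, a difference of 1.32 (2.5-fold higher, chr1:24259125-24259184). It was 0.46 with normexp and median scaling, and its other probe was not detected on any array. Col9a2, its partner, read 1.1, 2.77 and 3.60, a difference of 0.83 that was below 2-fold.

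The type XI chains, which sit in the core of type II fibres and of some type I fibres, did not go with Col2a1. Col11a1 read 3.57, 3.52 and 3.62, and its difference of 0.10 was smaller than the spot SD. Col11a2 read 1.92, 2.47 and 0.97, a difference of -1.51 (2.84-fold lower, chr17:34203113-34203172). The Runx2+/- array was thus the lowest for Col11a2 and the highest for Col2a1, with a distance of 3.89 between both differences. Col11a2 was -0.47 after normexp with the 75th percentile, which is -1.09 against that setting's median of all genes.

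Markers of several cell types were read on the same arrays. Among 6 osteoblast markers the genotype median was -2.0, with 5 at least 2-fold lower, and their summed linear level relative to the 75th percentile was 257, 392 and 93.8, in the order used throughout. Among 8 chondrocyte markers that are not collagens, 6 had an order, 3 were at least 2-fold higher and the median was 0.79, with sums of 13.7, 20.4 and 23.9. Sox9, Matn1 and Cnmd enter that count and median as lower bounds. Such a bound is kept only where the Runx2+/- array is higher, so these could not fall below 0. The markers measured on both arrays were Hapln1 (1.29), Comp (1.02) and Acan. Every marker sum covers only the genes detected on that array, and the brightest probes weigh most in it. The chondrocyte sums cover 5, 3 and 7 genes and are therefore not like for like. Sox9, Matn1, Matn3, Cnmd and Snorc were not detected on the P7 wild-type array, and Acan, the main cartilage proteoglycan, was lower on the Runx2+/- array (-0.67). Tendon markers had a median of 1.11 with 3 of 4 at least 2-fold higher, while Scx was at -0.05. Of all genes with an order, 5.04% were at least 2-fold higher and 13.9% at least 2-fold lower. Of the 6 osteoclast markers 5 had an order, 4 of them were at least 2-fold lower (median -2.74) and the sums were 150, 304 and 136. The part of these cells in the collagen differences was not tested.

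The basement membrane class had a genotype median of 0.23 over 4 ordered genes. Col4a1 and Col4a2 encode the chains of the ubiquitous type IV network and are transcribed away from each other from starts that overlap. The shared stretch of 22 bases is shown because it holds both starts (chr8:11312805-11312826, GRCm38.p6, plus strand, capitals marking GGGCGG).
Col4a1-Col4a2: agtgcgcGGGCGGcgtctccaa

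Col4a1 read 4.72, 4.93 and 5.63, with an SD of 0.05 to 0.07 over its 10 spots on each array, and Col4a2 read 4.55, 5.08 and 5.32. Their genotype differences were 0.70 and 0.24, both below 2-fold, and the Runx2+/- array was the highest for each. Col4a5, on the X chromosome, was detected on the Runx2+/- array alone (-1.82) and has no genotype order. Among 8 endothelial markers 5 were at least 2-fold higher and 1 lower (median 1.31, sums 127, 120 and 213). Tek, among the higher ones, is a lower bound. Of 6 mural cell markers 2 were at least 2-fold lower and none higher (median -0.70, sums 374, 365 and 231). The part of either cell type in the type IV values was not tested.

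Types XV and XVIII carry endostatin domains and lie at the edge of basement membranes. Col15a1 read -0.22, -0.56 and -1.61, a difference of -1.05 (2.06-fold lower), through the repeat-bearing probe printed above. Its other 2 probes were not detected on any array, it was among the dimmest eighth of genes, whose median difference was -0.63, and it missed 2-fold in 3 of the 7 alternatives that gave another value. Col18a1 read 3.18, 3.08 and 3.29, with a genotype difference of 0.21, and its other probe gave 0.55.

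Type VI chains form beaded filaments around cells. Col6a1 read 6.89, 7.71 and 7.62, Col6a2 read 4.52, 5.67 and 5.29, and Col6a3 read 5.30, 5.88 and 6.00. Their genotype differences were -0.09, -0.38 and 0.12, and are 0.50 apart at most. The class median was -0.09, but it lay above 0 in 5 of 12 alternatives (range -1.44 to 1.13), and the other probe of Col6a2 gave 0.30. The 3 chains make up the type VI trimer, and Col6a1 and Col6a2 are neighbours on chromosome 10.

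In the FACIT class the genotype median was -0.25, but it lay above 0 in 6 of 12 alternatives (range -0.35 to 1.05). Col14a1, found in tendon, skin and other fibrous tissue, read 4.23, 4.65 and 6.17, a difference of 1.52 (2.87-fold higher, chr15:55352264-55352323). Its other probe gave 0.19, so the mean over probes was 0.85 and below 2-fold. That probe lies 4.53 kb toward the 5′ end in the genome, at position 5357 of the transcript against 6353 for the probe used. Col12a1, a related collagen of dense connective tissue, read 5.17, 6.06 and 5.52 (-0.54). Col16a1 read 7.62, 8.60 and 8.35 (-0.25), and its probes ranged from -0.46 to 0.35.

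The remaining class held 3 genotype differences of 2-fold. Col8a1, a short network collagen known from blood vessels and the cornea, read 1.70, 2.24 and 3.37, a difference of 1.13 (2.19-fold higher, chr16:57624471-57624530). Col8a2, its partner, read 5.16, 5.12 and 5.22 (0.10), and its other probe gave -0.79. Col13a1, a transmembrane collagen, read -0.47, -0.24 and -2.29, a difference of -2.05 (4.14-fold lower, probe between 61330216 and 61330585 on chromosome 10). It lay in the dimmest eighth of genes and was at least 2-fold lower in the 7 alternatives that gave another value (-2.17 to -1.06).

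Col22a1, a collagen of tissue junctions such as that between muscle and tendon, read 4.13, 4.04 and 2.10, a difference of -1.94 (3.85-fold lower, chr15:71628906-71628965). Its other probe, 70.4 kb toward the 5′ end in the genome, gave -2.45, so both probes were at least 2-fold lower. After normexp with the 75th percentile the value was -0.71, which is -1.33 against all genes. Skeletal muscle markers were mostly undetected (1 of 5 on the P7 wild-type array and 2 of 5 on the others), with Ckm, Myh3 and Mylpf detected on none.

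Col7a1, the anchoring fibril collagen of skin, read 0.36, 0.48 and -0.07 (-0.55), and of 4 epidermal markers Krt5 and Krt10 alone were detected, on the P5 and Runx2+/- arrays. Col20a1 read -0.40, 0.00 and -0.20 (-0.21). Col23a1, a transmembrane collagen, read -1.45 on the P5 array and -0.14 on the Runx2+/- array, was undetected in P7 wild type and was at least 1.46-fold higher in Runx2+/-. Col25a1, a transmembrane collagen of neurons and muscle, was detected on the Runx2+/- array alone (-1.51).

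Genes with several probes give a repeat measure of a collagen through different sequences. For genotype, 7 genes had at least 2 probes measured on both arrays. The probes pointed in the same direction in 3 of them, Col14a1, Col18a1 and Col22a1, and the root mean square SD between probes was 0.51, larger than the spot SD of 0.18. Toward the 3′ end the genotype difference was higher in 4 of the 7 genes, by a median of 0.51. Over all 2311 genes with several measured probes it was higher in 58.6%, by a median of 0.11. Position along the transcript was not separated from probe brightness here, and the part of either in the results was not tested.

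**Figure D3:**
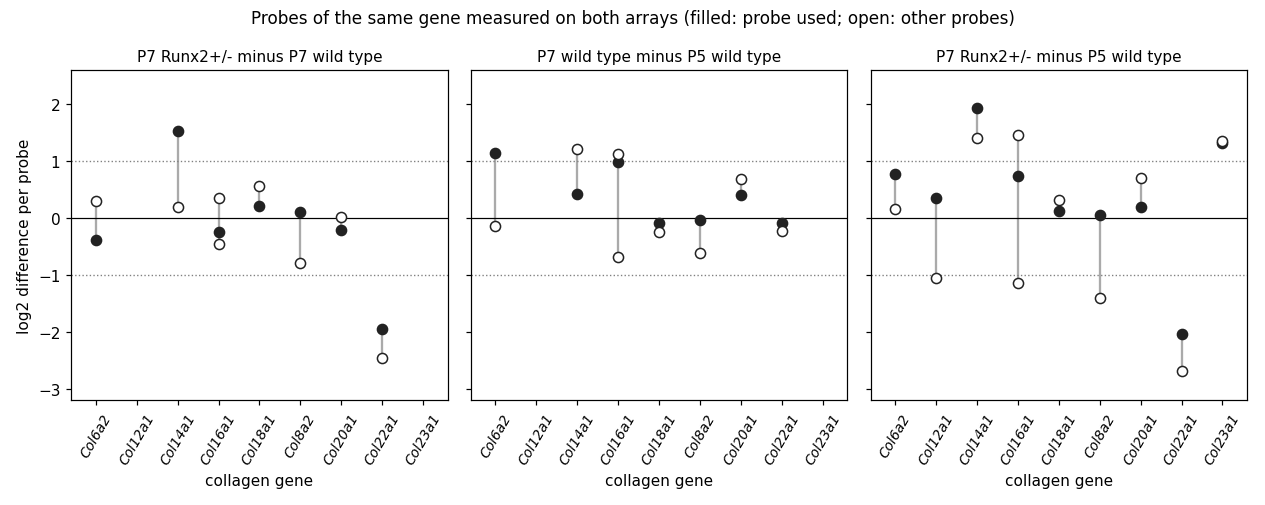
Log2 difference for every probe measured on both arrays in collagen genes with several such probes, for the 3 pairs of arrays (filled: the probe used; open: other probes; bars join probes of a gene). Both probes of Col22a1 lie below -1 in the left and right panels, while those of Col14a1 lie at 1.52 and 0.19 in the left panel, and those of Col16a1 lie on both sides of 0 in each panel.

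The other comparison asked how the wild-type suture differed between P5 and P7. It shares the P7 wild-type array with the genotype comparison, so a high or low reading on that array enters both with opposite sign, and the values are set side by side only. At P7, 4 of 29 ordered collagens were at least 2-fold higher, against 6.39% of all genes with an order. None was at least 2-fold lower, against 3.12% of all genes. The collagen median was 0.54 and 23 of the 29 lay above 0 (79.3%), while the median of all genes was 0.04 and 52.4% lay above 0. Markers of other cells differed between the same arrays. Of 5 ordered osteoclast markers 3 were at least 2-fold higher at P7 (median 1.1), of 4 ordered neural and glial markers 2 were at least 2-fold lower (median -1.40, sums 11.1, 3.71 and 4.36), and of 4 leptomeningeal markers Ptgds alone was (-2.77, sums over the list 60.5, 18.9 and 19.1). Their part in the age differences was not tested.

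Most collagens of fibrous and skeletal tissue were on the higher side at P7, at less than 2-fold. The class medians were 0.64 for bone fibrillar, 0.45 for other fibrillar, 0.81 for beaded and 0.89 for FACIT genes, and all 5, 2 of 3, all 3 and all 3 of their genes lay above 0. Col1a1 and Col1a2 were 0.66 and 0.62 higher, a gap of 0.05 between the type I partners. Col5a1 was 0.95 higher, Col3a1 0.60, Col12a1 0.89 and Col16a1 0.98. The FACIT values rest on the probes used. The other Col12a1 probe was at least 1.23-fold lower at P7, where it was not detected, whereas the other Col14a1 probe gave 1.21. With the mean over probes the FACIT age median was 0.47. After normexp with the 75th percentile Col1a1 and Col1a2 were -0.06 and -0.17, at an all-gene median of -0.24.

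The cartilage median was 1.06, and 3 of the 4 collagens that were at least 2-fold higher at P7 were in this class. Col9a2 was 3.16-fold higher (1.66), Col2a1 2.52-fold (1.34) and Col9a1 2.08-fold (1.06). After normexp with the 75th percentile these were 0.76, 0.54 and 0.41, all below 2-fold. In that setting the all-gene median was -0.24 and 0.232% of all genes were at least 2-fold higher. Its offset of 50 makes differences of dim probes smaller, so a value below 2-fold there says little about these genes. Col11a2 was 0.56 higher and Col11a1 differed by -0.04, so here too the type XI genes lay below Col2a1. Of 8 other chondrocyte markers only 3 had an age order, with a median of 0.18 and none at 2-fold.

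The fourth gene was Col6a2, 1.15 higher with the probe used and -0.15 with its other probe. Col6a1 and Col6a3, its partners, were 0.81 and 0.58 higher. Basement membrane genes had an age median of 0.06, with Col4a1 at 0.21, Col4a2 at 0.53, Col15a1 at -0.34 and Col18a1 at -0.09. In the remaining class the median was 0.17 and the range -0.09 to 0.54, with Col22a1 and Col8a2 just below 0 and Col8a1 the highest. Across probes, 5 of 7 genes kept 1 direction, and Col16a1 ran from -0.69 at its most 5′ measured probe to 1.12 at its most 3′ one.

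The P7 Runx2+/- array was also set against P5 wild type, a pair that shares an array with each of the other comparisons and leaves out the dim P7 wild-type array. Age, genotype and sex differ together in this pair. Of 32 ordered collagens 8 were at least 2-fold higher, against 8.67% of all genes, and 5 were at least 2-fold lower, against 15.4% of all genes. The 5 lower genes were Col1a1 (-1.81), Col1a2 (-1.29), Col15a1 (-1.38), Col13a1 (-1.82) and Col22a1 (-2.03). The 8 higher ones were Col2a1 (3.72), Col9a2 (2.49), Col9a1 (2.38), Col14a1 (1.94), Col8a1 (1.67), Col5a3 (1.53), Col23a1 (1.31) and Col27a1 (1.02).

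Col2a1 was thus 13.2-fold higher on the Runx2+/- array than on the P5 array, the widest difference of any collagen in the 3 pairs. Col11a2 was -0.95 and Col3a1 -0.24. Col23a1 was measured here by 2 probes, at 1.31 and 1.36, the narrowest spread among 9 genes with several measured probes. The probes kept 1 direction in 6 of the 9, and the root mean square SD between probes was 0.80. Col16a1 ran from -1.15 to 1.46, Col12a1 from -1.06 to 0.35 and Col8a2 from -1.40 to 0.05. Col1a2 turned to 0.26 under quantile normalization and 0.17 with the authors' values, and Col23a1 to -0.041 with normexp and median scaling.

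**Figure D4:**
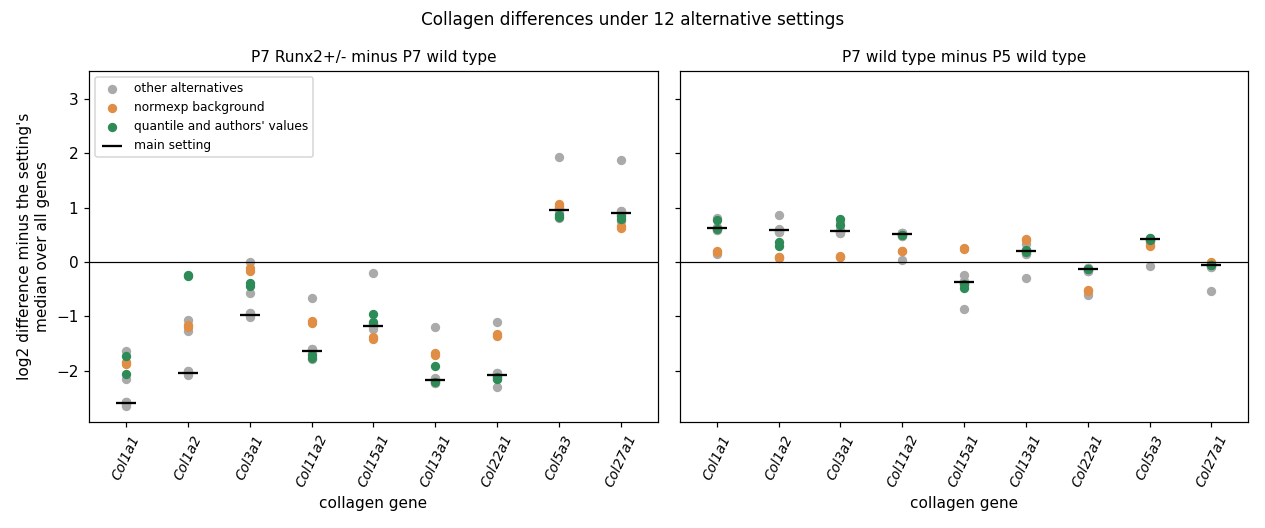
Genotype (left) and age (right) differences under the main setting (bars) and 12 alternatives (points), each minus the median of all genes under the same setting, in log2 units. The genes shown are Col1a1, Col1a2, Col3a1, Col11a2, Col15a1, Col13a1, Col22a1, Col5a3 and Col27a1. Col1a2 is near 0 for genotype with quantile normalization and the authors' values (green), while Col1a1, Col13a1 and Col22a1 stay below -1. Normexp (orange) brings the age values of Col1a1 and Col1a2 close to 0.

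Collagen chains need enzymes and chaperones to fold, and these were read from a list of 21 genes, of which 18 had a genotype order, and the median was -0.05, with 1 gene past 2-fold upward and 2 downward, beside 5.04% and 13.9% of all genes. P3h1, the prolyl 3-hydroxylase of fibrillar collagen, read 3.69, 3.54 and 2.08 (-1.46), and Creb3l1, a transcription factor that activates Col1a1 in osteoblasts, read 5.88, 5.97 and 4.89 (-1.09). P4ha2, a prolyl 4-hydroxylase subunit, was 1.01 higher, whereas Serpinh1, the collagen chaperone HSP47, was -0.56. For age the median was 0.24, with P3h3 at 1.01 the only gene past 2-fold.

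Of 13 procollagen proteases and crosslinking enzymes 10 had a genotype order, 2 were at least 2-fold lower, beside 13.9% of all genes, and none was higher (median -0.09). These were Adamts14, which removes the amino-terminal propeptide (3.70, 4.68 and 3.16, difference -1.52), and Loxl4, a lysyl oxidase (-0.10, -0.13 and -1.98, difference -1.85). Lox, the main crosslinker, was 0.44 and Bmp1, which removes the carboxy-terminal propeptide, was -0.05. For age the median was 0.26 and none passed 2-fold. Of 9 collagen receptors 7 had a genotype order, with a median of 0.53 and none at 2-fold, among them Ddr2 (0.78), the receptor for fibrillar collagen in bone. Mrc2, which takes up collagen fragments, was the receptor that passed 2-fold for age, at 1.25.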

How the data were processed

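RNA of 3 posterior frontal suture samples, 1 per group, was amplified, Cy3-labelled and read on 1-colour Agilent arrays, per the labels' protocols. The arrays lay on 1 slide and share 1 scan date, so no batch could be examined. The authors deposited the processed intensity of each spot, corrected by the scanner software (Agilent Feature Extraction 10.7.1.1 per the file headers, 9.5.1.1 per the submitters' processing notes) for background and spatial trend, with detection flags and probe positions on mm9. Their separate table of processed intensity values was deposited too and served as an alternative. How it was made is not given in the sources used here. With it 14500 genes had a genotype order, against 14499 after quantile normalization, so these alternatives may not be independent of each other.

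Control and outlier spots were left out, spots of a probe were averaged on the log2 scale, and each array's 75th percentile (signals 52.1, 22.8 and 124 for P5, P7 and Runx2+/-) was subtracted. No spot was saturated. The brightest probe stood for a gene. Where a gene was detected on 1 array of a pair and higher there, the difference is a lower bound against the other array's floor (-2.12, -0.69 and -3.25) or the probe's own value, whichever was higher, and all other genes have no order. Collagen probes kept their deposited gene names, and the accessions of 62 of the 68 were found in RefSeq (GRCm38.p6). Other probes took the RefSeq name where their accession was found and kept the deposited name otherwise. Precision rests on 1 array per group and on the signal above background.

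All collagen genes are named, and other genes are list members at least 2-fold apart or chosen after their values were seen. The members, classes and lists were chosen with earlier results of these data known. The 14 alternatives covered scaling, background correction (normexp, offset 50, limma 3.58.1 in R 4.3.3), detection filters, probe choice, the authors' values and folds of 1.5 and 3. The steps were tested on simulated arrays. Protein features were not analysed here.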

Additional observations from a re-analysis of the deposited data

How the results depend on the processing

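With 1 array per group there was no replicate to leave out. No paired analysis was possible because each group has 1 array and the labels give no replicate numbers. Of the genotype calls, Col1a1, Col13a1 and Col2a1 kept 2-fold under the 7 alternatives that gave them another value, of 12 that keep this threshold. No age call did so, and in the pair of Runx2+/- and P5 Col22a1 among lower and 6 of 8 higher genes kept it wherever the value moved. The count of collagens 2-fold lower for genotype (6) was 2 with normexp and the 75th percentile (3.91% of all genes) and 17 of 43 without filter and floor (47.7%). The count 2-fold higher (6) was 16 with normexp and the 75th percentile (31.6% of all genes) and 1 at 3-fold (0.678%). For age the count lower (0) was 1 without filter and floor (4.18% of all genes). The age count higher (4) was 0 with normexp and the 75th percentile (0.232% of all genes), 1 with normexp and median scaling (1.14%), 11 of 43 without filter and floor (39%), 12 at 1.5-fold (16.2%) and 1 at 3-fold (2.24%). Normexp with the 75th percentile moved the genotype median of all genes from 0.13 to 0.62 and removing filter and floor moved it to -0.84.

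The genotype median of bone fibrillar genes (-0.25) was 0.90 with normexp and the 75th percentile and 0.19 with normexp and median scaling. For cartilage (0.83) the same settings gave 1.19 and 0.47, cyclic loess 0.61 and no filter 0.10. For basement membrane (0.23) they gave 1.27 and 0.56, and no filter -1.04. Cartilage lay above the median of all genes by 0.53 to 0.94 over the 12 settings. Against P5, Col1a2 on the Runx2+/- array (-1.29) reversed to 0.26 under quantile normalization and 0.17 with the authors' values, and Col23a1 (1.31) to -0.041 with normexp and median scaling. Apart from the construction of quantile normalization, the cause was not tested. Dim genes are limited by background: 11 of 43 collagens were detected on no array, and the P7 wild-type floor was the highest of the 3.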

Other observations

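Several collagen genes lie next to each other in the genome, in the order given by the RefSeq annotation of GRCm38.p6, and neighbours can be read side by side. Col3a1 and Col5a2, neighbours on chromosome 1, differed by -0.85 and -0.25 for genotype and by 0.60 and 0.64 for age. Col6a1 and Col6a2 on chromosome 10 differed by -0.09 and -0.38 for genotype and by 0.81 and 1.15 for age. In the pairs Col9a1 and Col19a1 and Col4a5 and Col4a6, the first gene was detected on at least 1 array and the second on none. The row of Col6a4, Col6a5 and Col6a6 on chromosome 9, whose products can take the place of the Col6a3 chain, and the pair of Col4a3 and Col4a4 on chromosome 1 were detected on no array.

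Among the 29 collagens detected on all 3 arrays, the P5 array was the lowest for 17, the P7 wild-type array for 4 and the Runx2+/- array for 8. The P5 array was the highest for Col15a1 and Col22a1 alone. The level ranged by less than 0.5 log2 units over the 3 arrays in 5 genes, Col11a1, Col8a2, Col18a1, Col20a1 and Col24a1. The counts in this paragraph were not made over all genes, so they are not read as a trait of collagens.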
